A study of Mus musculus with 70 samples.

Results

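Tissue of the embryonic hindbrain at E14.5 (H) was compared with 3 adult hindbrain nuclei at P56: PB (parabrachial nucleus), NTS (nucleus of the solitary tract) and DVC (dorsal vagal complex). The comparison used 13 of the 70 libraries of the series, 3 from H, 4 from NTS, 3 from DVC and 3 from PB, and they were chosen by region and age alone. All animals were wild-type mice of the C57BL/6NTac strain, the adults were males, and the sources used here name no allele or treatment for any group. Each library holds mRNA from punches of frozen sections pooled over several mice or several embryos, so the spread between libraries is a spread between pools. By the study's methods the animals were too few for every pool to hold different ones, so libraries of different regions share animals, and p-values that take the libraries as independent may be too small. The embryonic punches were cut from sagittal sections and labelled hindbrain as a whole, and the adult punches were cut from coronal sections at a nucleus. Embryonic and adult tissue was collected in separate batches, so age and batch cannot be told apart, and neither can age and the size of the region that was sampled.

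The hindbrain forms the pons and medulla, and the cerebellum grows from its dorsal rim. In the embryo its ventricular wall holds dividing progenitors, and the position of a cell along the head-to-tail axis is recorded by the combination of Hox genes that it uses. In the adult, NTS receives sensory input from the gut and heart by way of the vagus nerve, DVC takes in NTS together with the area postrema and the vagal motor nucleus, and PB in the pons relays visceral and taste signals to the forebrain.

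Levels are given as TPM, a share of all transcripts of a library that is scaled by transcript length, so that levels of different genes in a library can be compared. The total estimated count was 9074581 in H replicate 1, 16413807 and 16776555 in the other H libraries, and 14746313 to 19999209 in the adult libraries. Genes of the mitochondrial genome took 22.6% of the TPM in H replicate 1, 11.8% in replicate 2 and 6.104% in replicate 3, and 6.46% to 12.4% in the adult libraries. The H libraries were also less alike than the adult ones. Across genes, Pearson's r of log2 levels was 0.955 to 0.980 between H libraries and at least 0.986 between adult libraries of a region, and the median SD of a gene was 0.46 on the log2 scale in H and 0.13 to 0.17 in the adult regions.

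Differences are given as H minus the mean of NTS, DVC and PB, each region with equal weight, on the log2(TPM + 0.5) scale, with the SE of the fit. The fit takes the same spread for H and the adult regions. For genes that varied more between the H libraries, such as Npy, the SE and p may therefore be too small. This scale understates the change of genes with low TPM. Genes tested had at least 1 TPM in at least 3 of the 13 libraries. The 3 H libraries alone could meet this filter. A gene that passed by them alone could be called higher but not lower, as with Mki67, Nhlh1, Atoh1, Hmga2, Hbb-y and Hba-x. This bears on the counts of higher genes, in the lists and over all genes. A gene was called where the Benjamini-Hochberg adjusted p of limma over all 16543 genes tested was under 0.05 and the difference was above 1 in size. By this rule 3075 genes (18.6%) were higher in H and 4045 (24.5%) were lower. All 3 H libraries lay above all 10 adult libraries for 3810 genes (23.0%) and below all of them for 4629 (28.0%). Without H replicate 1 the calls were 3440 higher (20.8%) and 3288 lower (19.9%), and a fit that allowed each group its own spread called 2319 and 3460. The median difference over all genes was -0.11 with H replicate 1 and 0.07 without it. In bulk tissue, fewer cells of a type and less RNA of a gene in each cell cannot be told apart.

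Among genes with a named symbol whose H and adult libraries did not overlap, Hbb-y had the largest difference upward and Mobp the largest downward. Hbb-y, an embryonic beta-type globin on chromosome 7 (103851749 to 103853216, GRCm38), had 1103, 1142 and 1992 TPM in H and at most 0.265 TPM in the adult libraries. Its difference was 11.24 ± 0.23 (adjusted p = 1.68e-12). Hba-x, the embryonic alpha-type globin, had 473.6, 330.7 and 382.2 TPM in H and was listed at 0 in every adult library. Of the 10 largest differences upward, 4 belonged to Rps12-ps4, Rps15a-ps6, Mrip-ps and Hist1h2ao, pseudogenes or members of a family of near-identical copies, whose reads may come from another copy and whose values are therefore uncertain. At the other end Mobp, a structural protein of central myelin (chromosome 9, 120149707 to 120181484), had 0.358, 0.170 and 0.0832 TPM in H. In the adult libraries Mobp ran from 1546 to 2594 TPM with a median of 1777, a difference of -11.33 ± 0.14 (adjusted p = 2.71e-14). The other large differences downward included Gpr37l1 and Ntsr2, receptors known from astrocytes, with -8.58 ± 0.10 and -7.84 ± 0.14.

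**Figure D1:**
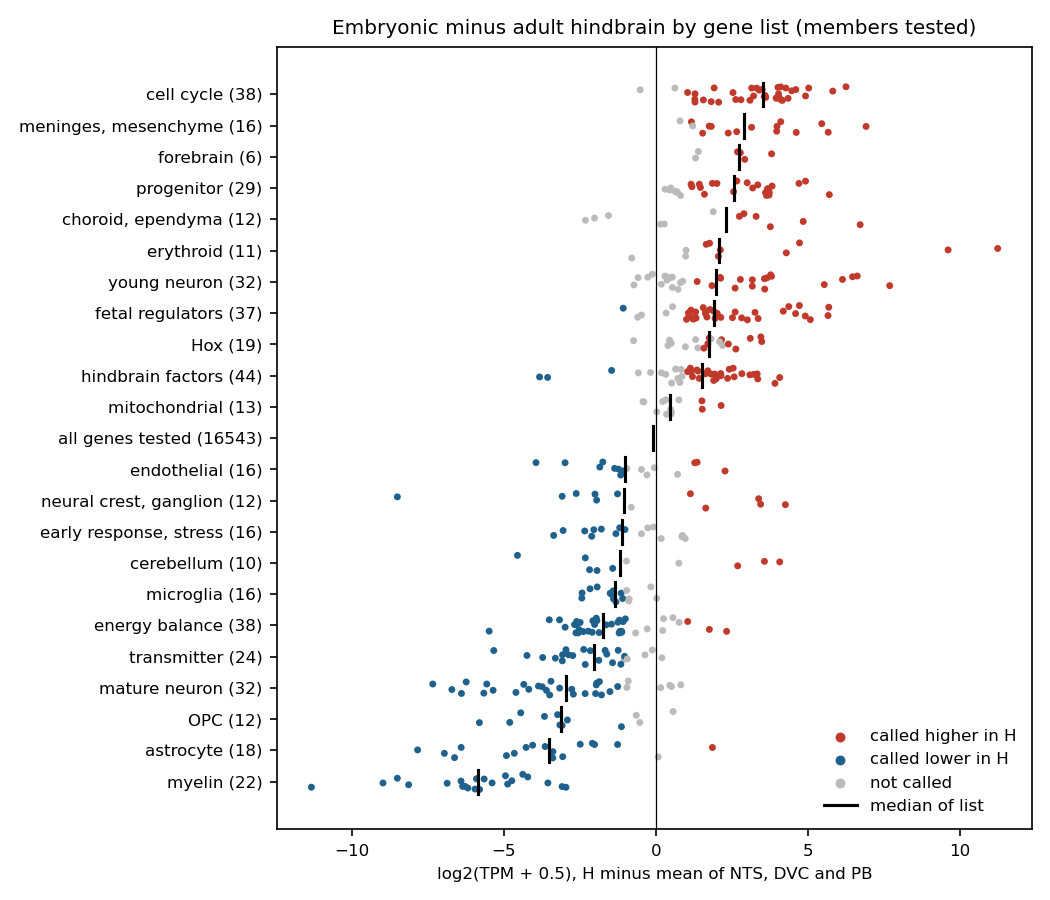
Difference of every tested member of 22 gene lists, H minus the mean of NTS, DVC and PB in log2(TPM + 0.5), with the number of members tested in brackets. Each point is a gene, red where called higher in H, blue where called lower and grey where not called, and the black bar is the list's median, from 3.53 for the cell cycle to -5.85 for myelin.

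Genes of the cell cycle were higher in H almost without exception. Of 38 listed members, all tested, 36 were called higher, against 18.6% of all genes, and their median difference was 3.53 where all genes had -0.11. The summed level of the list was 1328, 1046 and 1306 TPM in H and 178.3 to 201.2 TPM in the adult libraries. Mki67, the marker of dividing cells, had 80.9, 48.5 and 40.3 TPM in H and 0.0778 to 0.303 TPM in the adult libraries (median 0.236). The groups did not overlap, and its difference was 6.26 ± 0.22 (adjusted p = 1.59e-10). Top2a, the topoisomerase that untangles replicated DNA, had 72.2, 55.0 and 85.7 TPM in H against an adult range of 0.145 to 1.804 TPM, a difference of 5.82 ± 0.31 (adjusted p = 6.79e-09). The cyclins Ccna2 and Ccnb1, which drive S phase and mitosis, differed by 5.03 ± 0.20 and 4.92 ± 0.25, and Cdk1, the kinase that they activate, had 38.1, 31.6 and 49.0 TPM in H and at most 2.19 TPM in the adult libraries. The exceptions were Ccne1, a cyclin of the entry into S phase, with 17.2, 14.02 and 9.23 TPM in H and 15.7 to 25.9 TPM in the adult, and Gmnn, an inhibitor of repeated replication. Gmnn had 24.2, 11.8 and 19.5 TPM in H and 7.75 to 14.9 TPM in the adult (0.63 ± 0.20, not called).

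Promoters of Mki67, Top2a and Cdk1 are shown because many cell cycle promoters are known to carry short shared elements, and these 3 genes had the largest differences among the called cell cycle genes whose window holds both a CHR element and a CCAAT box. The windows reach from 250 bases before to 50 after the gene's start in RefSeq on GRCm38.p6, and all 3 lie on the minus strand, at chr7:135716330-135716629 for Mki67, chr11:99024140-99024439 for Top2a and chr10:69352863-69353162 for Cdk1. Capitals mark TTTGAA (CHR), CCAAT and the E2F words TTTCCCGC, TTTGGCGC, TTTCGCGC and TTTGCCGC, read on either strand.
Mki67: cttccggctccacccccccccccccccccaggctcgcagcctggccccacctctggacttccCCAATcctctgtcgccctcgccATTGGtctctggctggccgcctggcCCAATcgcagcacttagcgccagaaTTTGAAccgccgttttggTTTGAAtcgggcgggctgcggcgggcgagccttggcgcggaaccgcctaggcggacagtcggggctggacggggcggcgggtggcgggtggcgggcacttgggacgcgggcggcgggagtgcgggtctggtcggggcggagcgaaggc
Top2a: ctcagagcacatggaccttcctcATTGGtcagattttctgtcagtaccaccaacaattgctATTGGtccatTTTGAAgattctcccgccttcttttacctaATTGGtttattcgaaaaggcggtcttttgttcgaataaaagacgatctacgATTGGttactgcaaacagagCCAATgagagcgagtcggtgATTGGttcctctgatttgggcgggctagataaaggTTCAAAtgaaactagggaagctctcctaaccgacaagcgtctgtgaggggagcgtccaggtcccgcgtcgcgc
Cdk1: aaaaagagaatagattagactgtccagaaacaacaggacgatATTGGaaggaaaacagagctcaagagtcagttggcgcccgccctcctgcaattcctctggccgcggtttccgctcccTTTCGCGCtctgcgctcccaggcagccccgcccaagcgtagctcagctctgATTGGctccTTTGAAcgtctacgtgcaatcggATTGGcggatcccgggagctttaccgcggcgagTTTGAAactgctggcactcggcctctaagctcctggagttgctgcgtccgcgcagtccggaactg
Of the 36 called cell cycle genes, 26 had a window in the RefSeq table. CCAAT stood in 21 of these windows (80.8%), CHR in 12 (46.2%) and an E2F word in 6 (23.1%). Over all 32851 windows of this length the shares were 37.4%, 17.9% and 2.26%, and over the 11394 tested genes with a window they were 42.8%, 14.3% and 4.41%. Among all genes called higher in H the shares were 45.1%, 16.5% and 6.38%. These matches describe letters in a window and do not show that a factor binds there.

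Progenitor genes were also higher. Of 32 listed members 29 were tested, and 22 were called higher, against 18.6% of all genes, with a median of 2.56. Neurog1, Neurod4 and Ptf1a were too low to test. Nes, an intermediate filament of neural stem cells, had 59.3, 117.8 and 112.5 TPM in H and 5.13 to 8.68 TPM in the adult libraries (3.67 ± 0.21, adjusted p = 1.07e-08). Nhlh1, a factor of cells leaving the cycle, had 16.3, 31.4 and 36.0 TPM in H and at most 0.0757 TPM in the adult (5.70 ± 0.24, adjusted p = 8.43e-10). Atoh1 (chromosome 6, 64729125 to 64731245), the factor of the rhombic lip from which granule cells and precerebellar neurons arise, had 21.6, 8.26 and 19.7 TPM in H. It was listed at 0 in all NTS and DVC libraries and reached 0.123 TPM in PB, and its difference was 4.92 ± 0.27 (adjusted p = 9.2e-09). Zic1, a zinc finger factor of dorsal neural tissue, differed between the H libraries, with 1248, 662.8 and 339.0 TPM, and still lay above the adult range of 7.13 to 80.5 TPM (4.71 ± 0.34, adjusted p = 9.72e-08). Sox2 and Gadd45g were the most abundant members not called. Sox2, a stem cell factor that some adult glia keep, had 19.95, 47.1 and 88.0 TPM in H around an adult range of 21.4 to 31.8 TPM, and without H replicate 1 it was called higher.

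Genes of young neurons split into a part that was higher in H and a part that was not. Of 32 members 18 were called higher, against 18.6% of all genes, with a median of 1.98. Robo3, the receptor that steers commissural axons across the midline, stood at 139.3, 197.3 and 205.7 TPM in H and at 0.185 to 0.738 TPM in the adult libraries. Its difference of 7.69 ± 0.20 (adjusted p = 1.31e-11) was the largest of the list. Sox11, a factor of newborn neurons, had 214.9, 359.8 and 342.7 TPM in H and 1.73 to 3.56 TPM in the adult (6.62 ± 0.16, adjusted p = 7.02e-12). Dcx, a microtubule protein of migrating neurons, had 197.2, 310.5 and 310.8 TPM in H and 2.23 to 4.47 TPM in the adult (6.14 ± 0.18, adjusted p = 3.23e-11). For these 3 genes the H libraries lay close together and far above every adult library. Tubb3, a tubulin that neurons keep for life, had 348.3, 1193 and 1653 TPM in H and 479.0 to 688.0 TPM in the adult, so that H replicate 1 lay below the adult range and the others above it (0.54 ± 0.33, adjusted p = 0.163). It was called higher without H replicate 1. Stmn2, a regulator of growing axons, had 498.4, 1004 and 802.4 TPM in H and 439.9 to 633.4 TPM in the adult (0.50 ± 0.17, not called).

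**Figure D2:**
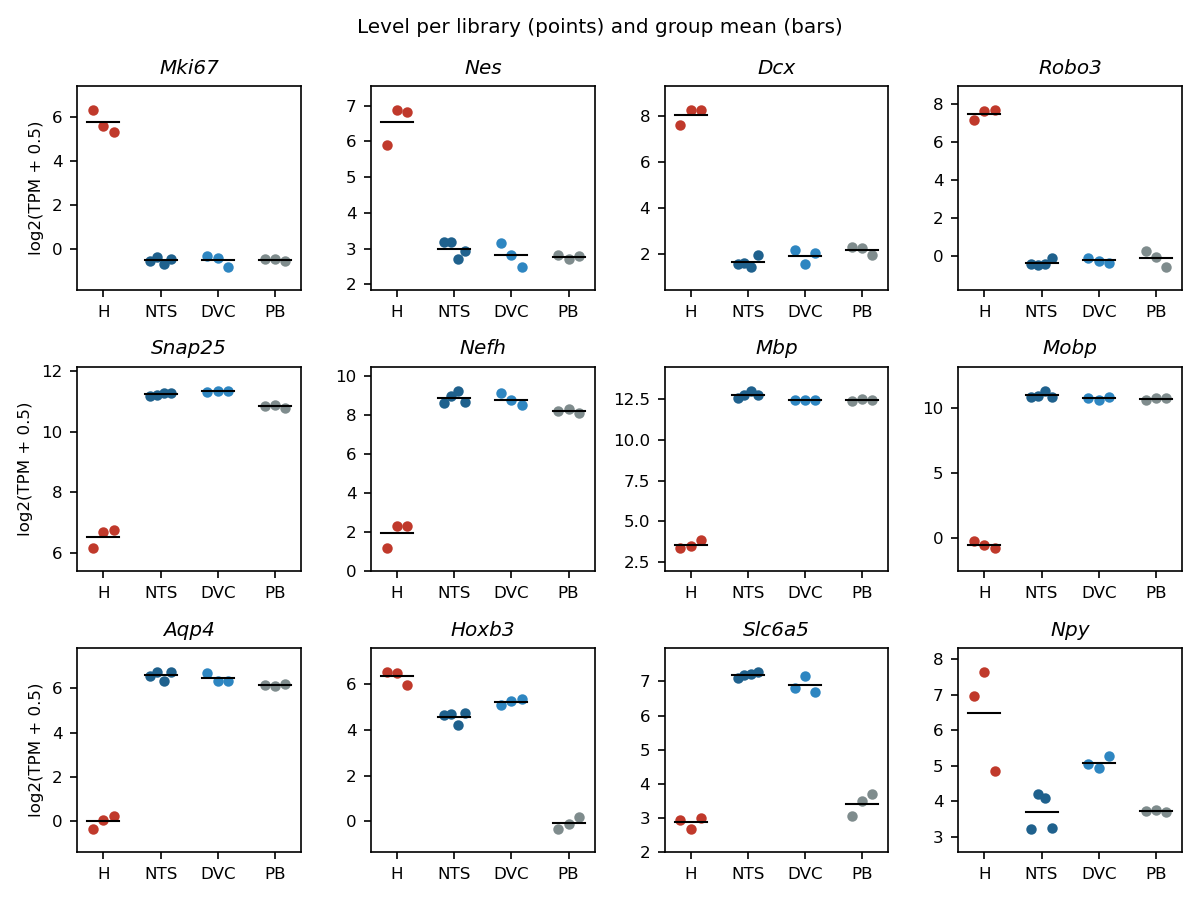
Level of 12 genes in log2(TPM + 0.5) in each library of H (red), NTS, DVC (blues) and PB (grey), with the group mean as a bar and a vertical axis of its own for each gene. Mki67, Nes, Dcx and Robo3 lie above every adult library in H, Snap25, Nefh, Mbp, Mobp and Aqp4 lie below, Slc6a5 in H lies beside PB, and Npy in H replicate 3 lies just under the DVC libraries.

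Genes of mature neurons were lower. Of 32 members 26 were called lower, against 24.5% of all genes, with a median of -2.97, and 24 were lower against NTS (22.7% of all genes), 26 against DVC (24.4%) and 28 against PB (25.1%). The summed level was 1033, 2110 and 2172 TPM in H against 10020 to 12740 TPM in the adult. The log2 ratio of the mature to the young neuron sum was -4.0, -4.22 and -3.92 in the H libraries, 1.15 to 1.34 in NTS, 1.06 to 1.21 in DVC and 0.52 to 0.54 in PB. Snap25, which docks synaptic vesicles, had 71.4, 101.6 and 106.9 TPM in H and 1774 to 2615 TPM in the adult (-4.60 ± 0.12, adjusted p = 1.13e-11). Nefh, the heavy neurofilament of thick axons, had 1.75, 4.47 and 4.40 TPM in H and 278.5 to 614.5 TPM in the adult (-6.71 ± 0.23, adjusted p = 1.43e-10). Scn4b, an accessory subunit of sodium channels, had 0.0580, 0.116 and 0.526 TPM in H and at least 63.8 TPM in the adult with a median of 133.3 TPM (-7.34 ± 0.18, adjusted p = 7.02e-12). Vamp1, a vesicle protein of fast synapses, and Hcn2, a pacemaker channel, differed by -6.40 ± 0.16 and -6.24 ± 0.34. The 2 most abundant members that were not called were Shank1 and Dlg4, scaffolds of the postsynaptic side. Shank1 had 103.4, 247.3 and 91.7 TPM in H and 84.3 to 113.6 TPM in the adult (0.46 ± 0.23, not called), and in edgeR and DESeq2 its difference had the other sign. Dlg4 had 80.8, 217.5 and 308.0 TPM in H and 278.8 to 404.1 TPM in the adult (-0.95 ± 0.28, not called).

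Pairs of related genes that neurons are known to exchange as they mature, or that differ between dividing cells and neurons, were compared by their ratio of (TPM + 0.5) within a library, in which the scaling of the library cancels except for genes near the added 0.5 TPM. Of 11 pairs, 9 had an adjusted p under 0.05 in an exact two-sided permutation test over the 13 libraries, where the smallest p that 3 libraries against 10 allow is 0.0035. In 6 of them the ratio of the late to the early gene was higher in every adult library than in any H library, each with exact p = 0.0035 and adjusted p = 0.00549. Here the 10 adult libraries were taken as 1 group, without equal weight for each region. Their SD thus includes differences between regions, and the permutation treats libraries of different adult regions as alike. The shift was largest for the glycine receptor, the main inhibitory receptor of the brainstem and spinal cord. The log2 ratio of the adult subunit Glra1 to the fetal subunit Glra2 was -1.97, -2.35 and -2.93 in H and 1.84 to 4.89 in the adult libraries, with PB at 1.84 to 1.93 below NTS and DVC at 3.71 to 4.89. Glra1 (chromosome 11, 55514238 to 55608198) accounted for most of it, with 2.15, 3.44 and 3.10 TPM in H and 67.7 to 209.9 TPM in the adult (-5.32 ± 0.14, adjusted p = 1.31e-11). Glra2 had 9.91, 19.6 and 27.0 TPM in H and 5.91 to 20.8 TPM in the adult (0.62 ± 0.23, not called).

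The NMDA receptor pair had the same form. The ratio of Grin2a, the later subunit, to Grin2b, the earlier one, was -3.07 ± 0.41 (SD, n = 3) in H and -0.07 ± 0.33 (SD, n = 10) in the adult. The pair of chloride transporters sets the direction of GABA and glycine currents. Slc12a5, the exporter, over Slc12a2, the importer, was 0.76 ± 0.78 in H and 2.57 ± 0.30 in the adult, and Slc12a2 itself was lower in H, with 13.9, 12.3 and 21.9 TPM against 40.6 to 64.0 TPM. Among sodium channels Scn8a over Scn3a was -0.73 ± 0.48 in H and 3.02 ± 0.85 in the adult, and Scn3a was called higher in H (1.61 ± 0.26). The enolase pair Eno2 over Eno1 was -3.39 ± 0.32 in H and 0.29 ± 0.16 in the adult.

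**Figure D3:**
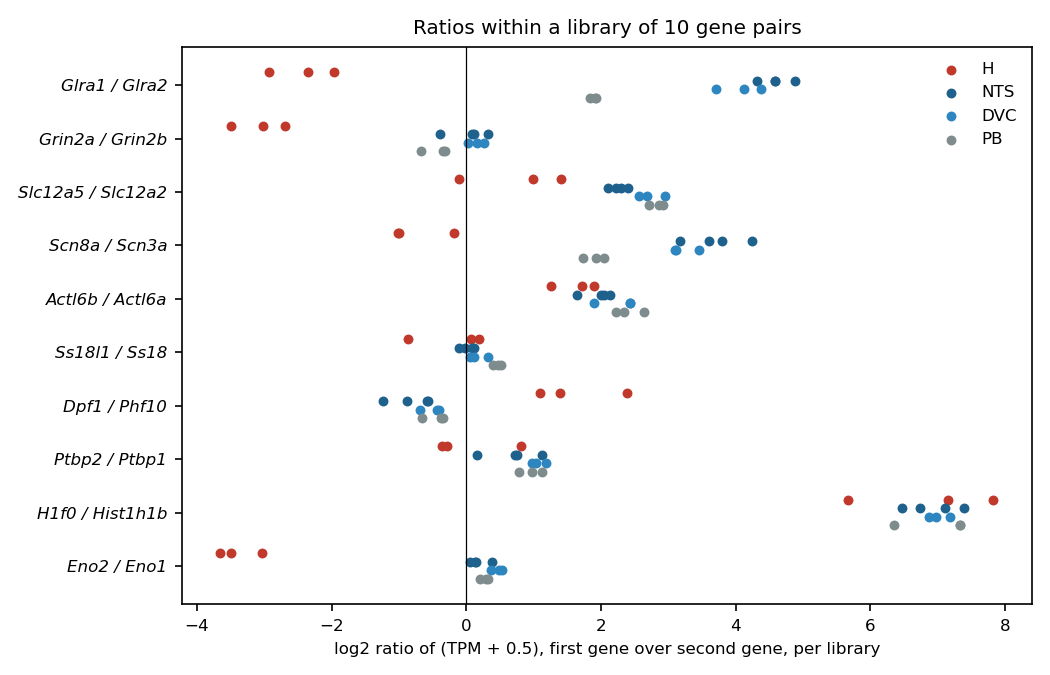
The log2 ratio of (TPM + 0.5) of a late gene over an early gene in each library, for 10 of the 11 pairs, with H in red, NTS and DVC in blues and PB in grey. In 5 of those drawn every adult library lies to the right of every H library, and in the pair Dpf1 over Phf10 every H library lies to the right.

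Pairs of nuclear factors were compared in the same way. In the BAF chromatin remodelling complex, progenitors are known to use Actl6a, Ss18 and Phf10, and neurons Actl6b, Ss18l1 and Dpf1 among others. Dpf1 had 144.3, 315.4 and 168.1 TPM in H and 13.9 to 27.4 TPM in the adult, and the ratio of Dpf1 to Phf10 was higher in H, at 1.62 ± 0.68 against -0.61 ± 0.28 (exact p = 0.0035, adjusted p = 0.00549). Actl6b over Actl6a was 1.63 ± 0.33 in H and 2.18 ± 0.30 in the adult (exact p = 0.0175, adjusted p = 0.0214), and Ss18l1 over Ss18 was -0.20 ± 0.58 and 0.20 ± 0.22 (exact p = 0.101, adjusted p = 0.112). The splicing repressors Ptbp1 and Ptbp2 were both higher in H, by 2.52 ± 0.16 and 1.68 ± 0.16, and the ratio of Ptbp2, the neuronal form, to Ptbp1 was 0.06 ± 0.66 in H and 0.88 ± 0.30 in the adult (exact p = 0.0175, adjusted p = 0.0214). The Actl6 pair passed the threshold no longer without H replicate 1 (adjusted p = 0.15), and the Ptbp pair no longer without H replicate 1 or 3 (adjusted p = 0.104 and 0.0926). For the linker histones H1f0 and Hist1h1b the ratio rests on Hist1h1b at 0 to 1.81 TPM and gave exact p = 0.797.

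Myelin was the most uniform list. All 22 members were called lower, against 24.5% of all genes, and the median was -5.85. In each of them all H libraries lay below all adult ones, against 28.0% of all genes. The summed level of the list was 167.4, 221.2 and 304.9 TPM in H and 14140 to 20640 TPM in the adult. Mbp, the basic protein that compacts myelin, had 9.87, 10.8 and 14.1 TPM in H and 5256 to 8361 TPM in the adult (-8.98 ± 0.12, adjusted p = 8.05e-14). Genes of oligodendrocyte precursors were not uniform. Of 12 members 9 were lower, against 24.5% of all genes. Among them were Olig1 (-5.81 ± 0.55) and Gpr17 (-4.45 ± 0.17), and Neu4 was listed at 0 in every H library. Pdgfra, the growth factor receptor of the precursors, which mesenchyme also uses, had 40.1, 11.9 and 23.1 TPM in H and 12.8 to 17.6 TPM in the adult (0.57 ± 0.25, not called).

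Astrocyte genes were lower in 16 of 18 members, against 24.5% of all genes, with a median of -3.52. Gfap, the intermediate filament of astrocytes, had 0.0564, 0.0751 and 0.123 TPM in H and 37.9 to 125.4 TPM in the adult (-6.96 ± 0.21, adjusted p = 4.29e-11). Agt, angiotensinogen, had 0.244, 0.162 and 0.413 TPM in H and 133.0 to 273.2 TPM in the adult (-7.84 ± 0.17, adjusted p = 3.44e-12). Sox9, which progenitors and cartilage also use, was the member that was higher, with 113.7, 40.4 and 41.6 TPM in H and 13.4 to 19.9 TPM in the adult (1.86 ± 0.26, adjusted p = 3.27e-05). Slc1a3, a glutamate transporter shared with radial glia, had 90.5, 90.0 and 147.1 TPM in H and 80.6 to 127.6 TPM in the adult (0.07 ± 0.15, not called). Microglial genes were lower in 11 of 16 members, against 24.5% of all genes, with a median of -1.36. Without H replicate 1 they were lower in 7, against 19.9% of all genes. Ctss, a lysosomal protease of microglia, had 6.28, 8.12 and 15.7 TPM in H and 46.7 to 62.8 TPM in the adult (-2.43 ± 0.19, adjusted p = 2.25e-07). Tyrobp, a signalling adaptor of these cells, had 8.32, 10.6 and 25.6 TPM in H and 18.7 to 28.4 TPM in the adult (-0.88 ± 0.25, not called).

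Of the 39 Hox genes 19 were tested and 20 were too low to test. Of those tested 9 were called higher, against 18.6% of all genes, with a median of 1.75. Without H replicate 1 the calls were 5, against 20.8% of all genes. The count depended on the adult nucleus, with 17 higher against PB (17.0% of all genes), 7 against NTS (19.7%) and 3 against DVC (18.1%), in comparisons that share the H libraries. Hoxa2 (chromosome 6, 52162417 to 52164831), which patterns the hindbrain from its front segments on, had 46.3, 29.4 and 33.3 TPM in H. It had 5.22 to 6.501 TPM in NTS, 6.54 to 8.61 TPM in DVC and 0.0720 to 0.375 TPM in PB, a difference of 3.45 ± 0.17 from their mean (adjusted p = 3.48e-09). Hoxb3 (chromosome 11, 96323326 to 96347930) had 93.8, 90.6 and 62.0 TPM in H, 17.9 to 25.9 TPM in NTS, 33.5 to 40.1 TPM in DVC and 0.296 to 0.645 TPM in PB (3.11 ± 0.17, adjusted p = 6.78e-09). For both genes H was higher than each nucleus by the same call rule, least against DVC, by 2.19 for Hoxa2 and 1.11 for Hoxb3.

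The H libraries parted at paralog group 4. Summed over group 3 they had 191.2, 189.4 and 105.8 TPM. Over group 4 they had 223.4 and 171.2 TPM in replicates 1 and 2 and 7.54 TPM in replicate 3, and over group 5 they had 224.6, 260.0 and 0.953 TPM. Replicate 3 thus lay below NTS, at 20.8 to 33.4 TPM for group 4, and above PB, at no more than 0.183 TPM. Replicate 2 was the highest in groups 6 to 8, with 44.2 TPM in group 8 where the others had 3.55 and 0.681 TPM. Hox genes of higher groups are known to mark more caudal tissue. Hoxb5, with 120.1, 146.8 and 0.471 TPM in H and 60.1 to 91.0 TPM in DVC, was not called (2.10 ± 1.11, adjusted p = 0.111), and was called without H replicate 3. Hoxa4, with 138.2, 77.6 and 1.79 TPM, was called (2.63 ± 0.87, adjusted p = 0.0164) but lost the call without replicate 1 or replicate 2 (adjusted p = 0.135 and 0.113) and with the adult libraries as 1 group (adjusted p = 0.14).

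**Figure D4:**
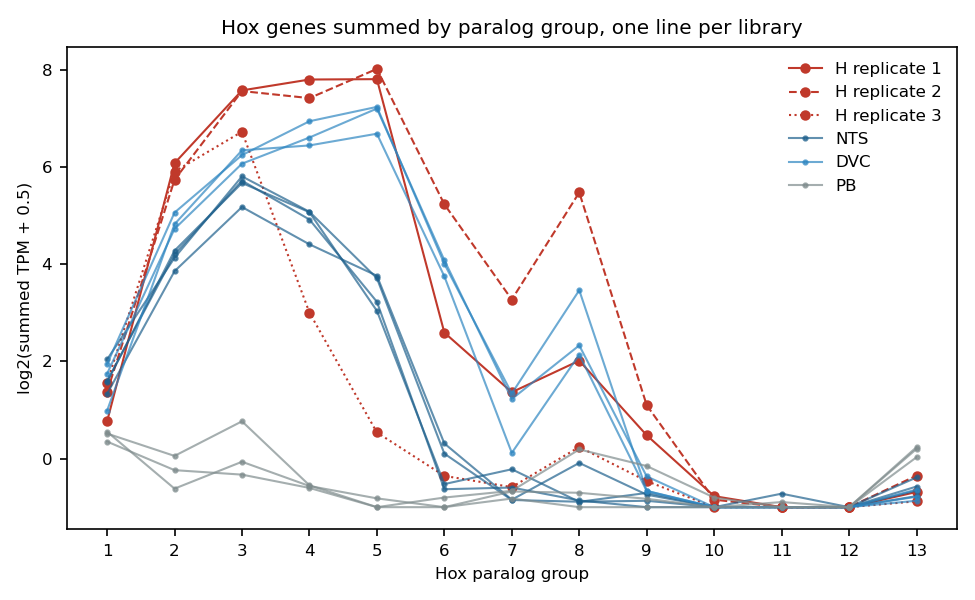
Summed TPM of the Hox genes of each paralog group, as log2(summed TPM + 0.5), with a line for each library of H (red), NTS, DVC (blues) and PB (grey). H replicates 1 and 2 stay near or above DVC through group 5, H replicate 3 falls from 105.8 TPM in group 3 to 0.953 TPM in group 5, and PB is low in every group.

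Other transcription factors that pattern the hindbrain and its neuron classes were mostly higher. Of 49 listed members 44 were tested. Among these 30 were higher and 3 lower, against 18.6% and 24.5% of all genes, and the median was 1.53. Foxp2, a factor of several hindbrain neuron types, had 162.2, 94.3 and 63.0 TPM in H and 2.46 to 11.6 TPM in the adult (3.92 ± 0.32, adjusted p = 3.08e-07). Barhl1, a factor of rhombic lip derivatives, and Lhx1, of inhibitory interneurons, were higher by 4.07 ± 0.29 and 3.33 ± 0.20. Lhx9, which had 11.9, 64.1 and 20.9 TPM in H, was higher by 3.35 ± 0.40. The lower genes were Dbx2 (-3.83 ± 0.18), Nkx6-2 (-3.56 ± 0.39), which adult oligodendrocytes also use, and Lhx3 (-1.46 ± 0.25), the last with at most 2.75 TPM in any of these 13 libraries. Pax8, an early factor of the midbrain-hindbrain region, had 12.4, 17.7 and 12.2 TPM in H and 1.51 to 22.0 TPM in the adult (0.52 ± 0.31, not called). The H libraries also differed in En1, a factor of the midbrain-hindbrain boundary, with 0.627, 31.4 and 14.9 TPM in replicates 1 to 3. Whether the punches differed in position was not tested.

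Genes for making and carrying transmitters were lower in 19 of 24 members, against 24.5% of all genes, with a median of -2.02. By nucleus, 13 were lower against NTS (22.7% of all genes), 13 against DVC (24.4%) and 20 against PB (25.1%). Without H replicate 1 the count against the mean was 17, against 19.9% of all genes. Slc6a5 (chromosome 7, 49910146 to 49963856), the glycine transporter of glycinergic neurons, had 7.17, 5.94 and 7.55 TPM in H. NTS had 137.1 to 155.8 TPM, DVC had 103.2 to 142.9 TPM and PB had 7.92 to 12.5 TPM, so that H lay far below the first 2 nuclei and just below PB. Its difference was -4.32 against NTS, -4.01 against DVC and -0.55 against PB, where it was not called, and -2.96 ± 0.14 against their mean (adjusted p = 2.92e-09). Slc6a9, the glial glycine transporter, had 6.42, 20.7 and 31.4 TPM in H and 192.0 to 267.1 TPM in the adult (-3.72 ± 0.32, adjusted p = 4.43e-07). Slc17a7, a vesicular glutamate transporter, had at most 0.406 TPM in H and 20.1 to 60.3 TPM in the adult (-5.33 ± 0.14, adjusted p = 1.49e-11). Chat, which makes acetylcholine, had 0.0530, 0.388 and 0.4998 TPM in H and 3.50 to 45.4 TPM in the adult (-4.24 ± 0.37, adjusted p = 5.22e-07), and Slc18a3, which lies inside the Chat gene and may share its reads, differed by -3.31 ± 0.46. Slc6a2 and Slc6a4, the noradrenaline and serotonin transporters, were not called against the mean of the nuclei, with at most 4.96 and 2.30 TPM in H and adult ranges of 0.314 to 84.6 and 0.0404 to 52.6 TPM that peaked in PB. Against PB alone both were lower in H, by limma, at -4.49 ± 0.88 (adjusted p = 0.000761) and -4.005 ± 0.81 (adjusted p = 0.000967).

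Receptors and peptides of energy balance were lower in 29 of 38 tested members, against 24.5% of all genes. They were higher in 3, against 18.6%, with a median of -1.75, and 6 of the 44 listed were not tested. Against NTS 18 were lower (22.7% of all genes), against DVC 28 (24.4%) and against PB 27 (25.1%). Those higher were 6 (19.7%), 3 (18.1%) and 3 (17.0%) in the same order. Without H replicate 1, 24 were lower and 4 higher, against 19.9% and 20.8% of all genes. Npy, the appetite-stimulating peptide, which sympathetic and brainstem neurons also make, was the largest difference upward. It had 124.9, 200.7 and 28.5 TPM in H, 8.85 to 18.1 TPM in NTS, 30.0 to 38.0 TPM in DVC and 12.4 to 13.1 TPM in PB (2.33 ± 0.44, adjusted p = 0.000412). Replicates 1 and 2 of H lay above every adult library and replicate 3 lay just under the lowest DVC library. Lepr, the leptin receptor, had 14.04, 4.27 and 9.68 TPM in H and 1.03 to 5.91 TPM in the adult (1.76 ± 0.37, adjusted p = 0.00105), and lost its call in the fit with a spread for each group (adjusted p = 0.104). Calcrl, the shared receptor of calcitonin gene-related peptide and adrenomedullin, which vessels also carry, was higher by 1.05 ± 0.29, close to the threshold of 1, and lost its call in 5 alternatives. Its partner Ramp1, which makes it a receptor for calcitonin gene-related peptide, had 0.0649, 0.174 and 1.35 TPM in H and 33.7 to 45.2 TPM in the adult (-5.49 ± 0.27, adjusted p = 3.07e-09). Ramp2, which makes it an adrenomedullin receptor, had 31.7, 43.1 and 38.6 TPM in H and 21.4 to 39.2 TPM in the adult (0.25 ± 0.16, not called).

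Several peptides of the adult nuclei were low in H. Cck, cholecystokinin, had 2.33, 7.88 and 3.65 TPM in H and 23.9 to 73.6 TPM in the adult (-3.17 ± 0.29, adjusted p = 9.81e-07). Gal, galanin, had 0.261, 2.09 and 2.28 TPM in H and 4.22 to 64.1 TPM in the adult (-3.51 ± 0.42, adjusted p = 1.02e-05), and Nts, neurotensin, differed by -2.99 ± 0.27. Glp1r, the receptor of glucagon-like peptide, had 0.107, 0.0713 and 0.0777 TPM in H and 1.26 to 4.24 TPM in the adult (-2.49 ± 0.22, adjusted p = 5.76e-07). Mc4r, the melanocortin receptor, had 1.78, 1.65 and 1.802 TPM in H and 2.32 to 5.97 TPM in the adult, a difference of -1.01 ± 0.19 that stands at the threshold.

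Regulators known from fetal tissue were higher in 32 of 37 tested members and lower in 1, with a median of 1.91. Over all genes 18.6% were higher and 24.5% lower. Cdkn1c, an imprinted inhibitor of the cell cycle, had 702.5, 405.0 and 375.8 TPM in H and 5.79 to 31.7 TPM in the adult (5.69 ± 0.38, adjusted p = 4.88e-08). The RNA-binding protein Igf2bp2 had 89.6, 47.2 and 50.5 TPM in H and 0.249 to 1.27 TPM in the adult (5.66 ± 0.29, adjusted p = 4.76e-09), and the chromatin protein Hmga2 had 40.1, 12.2 and 18.3 TPM against at most 0.200 TPM (5.08 ± 0.29, adjusted p = 1.07e-08). Uhrf1, which guides the copying of DNA methylation, was higher by 4.91 ± 0.35. The related Hmga1 had 81.2, 151.7 and 157.0 TPM in H and 154.4 to 254.4 TPM in the adult (-0.47 ± 0.19, not called). Peg3, an imprinted gene that adult neurons keep, was the lower member, at -1.08 ± 0.17, and it fell short of the threshold of 1 after rescaling without mitochondrial genes (-0.98) and in edgeR (-0.79).

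Markers of cells other than neural ones were also read in these punches. Of 16 tested genes of meninges and other mesenchyme 14 were higher in H, against 18.6% of all genes. The sum of this list was 1986, 661.4 and 1361 TPM in H and 48.5 to 105.6 TPM in the adult. Col2a1, the collagen of cartilage, had 941.8, 73.3 and 184.7 TPM in H and 0.829 to 2.39 TPM in the adult (6.91 ± 0.54, adjusted p = 1.91e-07), and Col3a1 and Col1a1, collagens of connective tissue, were higher by 5.67 ± 0.29 and 5.46 ± 0.27. H replicate 1 had the highest Col2a1, Acan and Sox9 of the 13 libraries, with Acan at 100.7 TPM against 4.91 and 13.6 TPM in the other H libraries, and it held 5.72 TPM of the muscle factor Myog where the others had 0.0704 and 0.461 TPM. Of 11 tested genes of red cells 8 were higher, against 18.6% of all genes. Among these, Hbb-y, Hba-x and Hbb-bh1 passed the filter by the H libraries alone and could not have been called lower. The sum of the red cell list was 5333, 7837 and 10670 TPM in H and 1027 to 3598 TPM in the adult. Of 16 genes of vessels 3 were higher, near the share of 18.6% over all genes, with Cdh5 of endothelial junctions at 2.27 ± 0.20, and 8 were lower against 24.5% of all genes, led by Slco1a4 (-3.95 ± 0.20) and Abcb1a (-2.99 ± 0.18), transporters of the mature barrier. Without H replicate 1 these counts were 2 and 4, against 20.8% and 19.9% of all genes. The part of these tissues in the results above was not tested.

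Genes of choroid plexus and ependyma gave 6 calls upward of 12, against 18.6% of all genes. By nucleus the calls were 2 against NTS (19.7% of all genes), 3 against DVC (18.1%) and 6 against PB (17.0%). Ttr, the transthyretin made by choroid plexus, had 566.0, 1025 and 1880 TPM in H, 10330 TPM in NTS replicate 1 and at most 272.6 TPM in the other adult libraries, and its call was lost in the fit with a spread for each group (adjusted p = 0.378). Of 10 tested cerebellar genes 3 were higher and 5 lower, where 18.6% and 24.5% of all genes were, led by Barhl1 and by Grin2c (-4.55 ± 0.18), and Pcp2, a Purkinje cell gene, reached 42.7 TPM in PB replicate 1. Of 12 genes of neural crest and ganglia 5 were higher and 6 lower, against 18.6% and 24.5% of all genes. The higher ones were led by Tfap2a (4.26 ± 0.21), and the lower ones included Sox10 (-3.08 ± 0.33), which oligodendrocytes also use. Of 16 forebrain factors 10 were too low to test, and 4 of the other 6 were higher, against 18.6% of all genes. The summed level of the list was 88.9, 143.5 and 72.1 TPM in H and 6.52 to 18.7 TPM in the adult. Six3, a factor of the front of the brain, had 22.6 TPM in H replicate 2 and 0.251 and 0.276 TPM in the others. Of 16 genes of the early response to activity and stress 9 were lower, against 24.5% of all genes, led by Arc (-3.36 ± 0.27) and Fos (-3.05 ± 0.21). Of the 13 mitochondrial mRNA genes 3 were higher, mt-Atp6, mt-Co2 and mt-Atp8, which is near the share of 18.6% over all genes, and without H replicate 1 there was 1.

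To see which of these differences were shared with another region of the same age, the stage difference in hindbrain was set against that in hypothalamus, where embryonic terminal and peduncular hypothalamus (THy/PHy, 3 libraries) was collected, by the study's list of batches for each region, in the same embryonic batches as H. The adult side was the mean of the arcuate, dorsomedial, ventromedial and paraventricular nuclei and the lateral hypothalamic area, with 30 libraries in the fit. Of 17908 genes tested, the stage difference was higher in hindbrain for 856 (4.78%) and lower for 768 (4.29%). The lower count was 447 without H replicate 1, 1760 without H replicate 3 and 509 without THy/PHy replicate 1. The list counts that follow are from the fit with all libraries only. No cell cycle gene was called by limma in this contrast, and the median of that list was 3.53 in hindbrain and 3.65 in hypothalamus. At an unadjusted p under 0.05, 8 of its 38 genes passed, but the share of all genes at that threshold was not counted.

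Myelin genes differed most often, with 16 of 22 falling further in hindbrain, against 4.29% of all genes, and medians of -5.85 and -4.28. Mobp had 0.957 TPM on average in THy/PHy and 790.4 TPM in adult hypothalamus, against H at no more than 0.358 TPM and adult hindbrain at 1546 TPM or more (-2.54 ± 0.39, adjusted p = 6.94e-05). Transmitter genes followed, with 12 of 24 lower, against 4.29% of all genes, and medians of -2.02 and -0.91. Slc6a5 was near 0 in hypothalamus at both ages, with a mean of 0.572 TPM in THy/PHy and 0.194 TPM in the adult, and its contrast was -3.48 ± 0.27 (adjusted p = 6.3e-09). Nefh and Scn4b averaged 4.54 and 0.112 TPM in THy/PHy and 63.0 and 10.1 TPM in adult hypothalamus, and their contrasts were -3.13 ± 0.27 and -3.93 ± 0.35.

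Among genes with the opposite contrast were Robo3 and Atoh1. Robo3 averaged 19.1 TPM in THy/PHy and its contrast was 3.43 ± 0.35 (adjusted p = 2.52e-07). Atoh1 averaged 0.292 TPM in THy/PHy, with a contrast of 4.40 ± 0.34 (adjusted p = 6.3e-09). Of the Hox list 5 of 19 were higher and 1 lower, against 4.78% and 4.29% of all genes. Hoxa3 had the largest of these (3.03 ± 0.39), with a mean of 0.229 TPM in THy/PHy. The largest contrast belonged to Cfap126, a protein of motile cilia, with 47.8, 52.7 and 41.8 TPM in H and 2.46 to 21.1 TPM in adult hindbrain (4.62 ± 0.53, adjusted p = 1.78e-06). Part of the Cfap126 contrast came from hypothalamus, where its mean log2 level was lower in THy/PHy than in the adult. The cilia genes Cfap45, Cfap206 and Dnajb13 were also among the 10 largest. In the fit with a spread for each group, the stage difference of these 4 in hindbrain itself was no longer called (adjusted p = 0.0704, 0.155, 0.151 and 0.149). The largest contrast downward was that of Nkx2-2, a factor of ventral progenitors and oligodendrocytes, with 0, 6.41 and 0.888 TPM in H, a mean of 61.5 TPM in THy/PHy and at least 9.57 TPM in adult hindbrain (-4.57 ± 0.55, adjusted p = 3.04e-06). Of the energy balance genes 11 of 43 were higher and 3 were lower, against 4.78% and 4.29% of all genes. Cck averaged 2.60 TPM in THy/PHy and 146.0 TPM in adult hypothalamus, and its contrast was 1.55 ± 0.46. Npy was higher in this contrast (3.06 ± 0.51), with 29.0 TPM on average in THy/PHy and 125.2 TPM in adult hypothalamus.

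**Figure D5:**
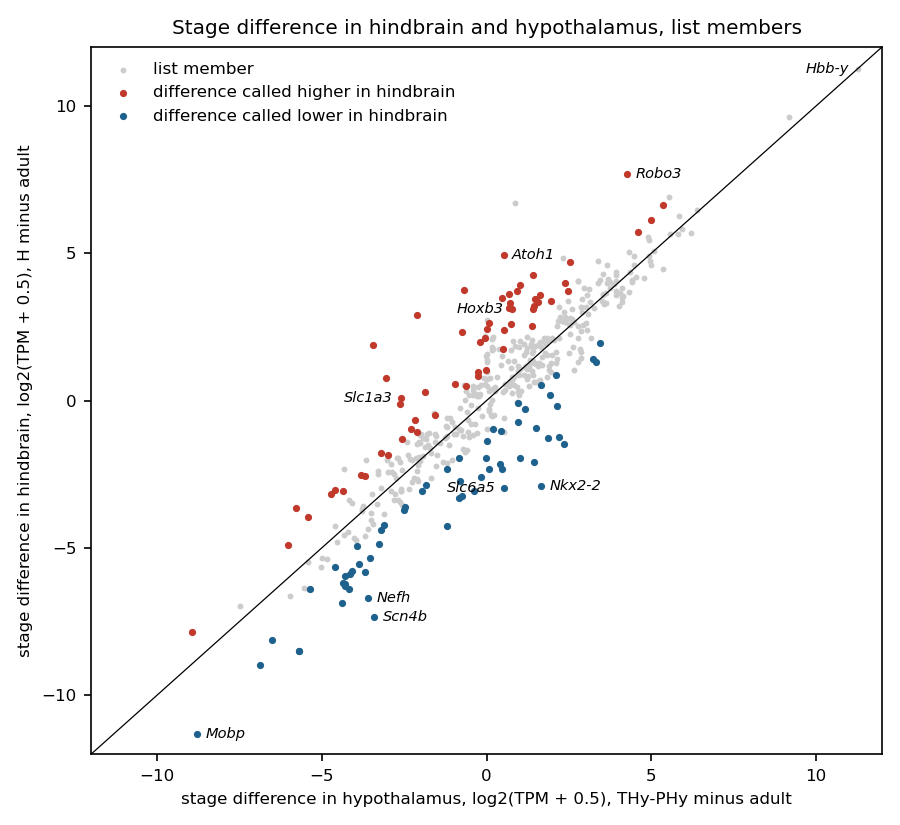
Stage difference of list members in hypothalamus (horizontal, THy/PHy minus adult nuclei) and in hindbrain (vertical, H minus adult nuclei), both in log2(TPM + 0.5), with the line of equal differences. Red and blue points are genes whose contrast was called higher or lower in hindbrain, such as Robo3 at 3.43 and Scn4b at -3.93, and grey points were not called.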

How the data were processed

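The authors converted single-read sequencing of stranded mRNA libraries to FASTQ with CASAVA 1.8.2, separated the libraries by barcode and quantified them with Kallisto on GRCm38 transcripts. The deposited gene table holds TPM summed by the authors over the transcripts of 34677 genes, and the deposited transcript table holds estimated counts that were not normalized between libraries. Genes with at least 1 TPM in at least 3 of the 13 libraries were tested with limma 3.58.1 in R 4.3.3 (a group for each region, eBayes with trend) on log2(TPM + 0.5), and calls needed an adjusted p (Benjamini-Hochberg) under 0.05 with a difference above 1 in size. As alternatives, estimated counts were summed per gene with release 21 of the GENCODE mouse annotation, which matched 107987 of 109282 transcripts, rounded, and tested with edgeR 4.0.16 and DESeq2 1.42.0, leaving out 373 gene names whose transcripts did not sum to the gene TPM. Ratios of 11 gene pairs were compared by exact permutation over libraries in Python 3.11.15 with SciPy 1.17.1.

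The 22 gene lists, the pairs and the comparison itself were chosen with earlier results of these data known. Genes named are the 10 largest called differences in each direction with a named symbol, no overlap of H and adult libraries and a mean of at least 5 TPM, the 4 largest called members of each list in each direction, the 2 most abundant members not called, both genes of each pair and the 10 largest contrasts with hypothalamus in each direction. Cdk1, Nes, Snap25, Glp1r, Mc4r, En1, Myog, Neurog1, Neurod4, Ptf1a and the mitochondrial genes named outside this rule were chosen after their values were seen, and not every gene under the rule is named, with 1 of the pairs and some genes not reported here. Promoter windows are from RefSeq on GRCm38.p6, gene coordinates from the GENCODE annotation. Counting error of low TPM is larger in H replicate 1, which had the fewest reads. At this depth a gene near 0 TPM may be expressed below detection.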

Additional observations from a re-analysis of the deposited data

Results flagged for a closer look

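Among the 4 NTS libraries, 15 of 189 values tested had a highest or lowest library that stood apart from the others by Dixon's criterion (0.829 for 4 values). The criterion's chance rate of about 1 in 20 holds for independent, normally distributed values, so the count cannot be set against it. For Nhlh1, Hbb-y, Dlx5 and Rps12-ps4 the other NTS libraries were listed at 0, where any single value above 0 stands apart. NTS replicate 1 stood apart for genes of choroid plexus, with Ttr at 10330 TPM against 2.47 to 10.7 TPM in the other NTS libraries, Folr1 at 120.3 TPM against at most 0.526, Slc4a5 at 41.5 TPM against 1.15 to 1.99 and Kl at 90.1 TPM against 0.969 to 1.62. It also held the only NTS values above 0 for Nhlh1 (0.0428 TPM) and Dlx5 (0.0855 TPM). NTS replicate 4 had the highest mitochondrial share, 12.4% against 8.43% to 8.96%, with mt-Atp6 at 3661 TPM and mt-Cytb at 13410 TPM. The same library stood apart for Robo3 (0.455 TPM), Rps12-ps4 (8.33 TPM) and H1f0 (83.5 TPM, the lowest). NTS replicate 3 had the highest Mobp (2594 TPM) and the lowest Hoxb3 (17.9 TPM against 24.7 to 25.9), and NTS replicate 2 had Hbb-y at 0.224 TPM where the others were listed at 0. Groups of 3 libraries were not examined in this way.

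The stage difference differed between hindbrain and hypothalamus for 856 genes upward and 768 downward, by limma on the contrast itself. The 10 largest upward were Cfap126 (4.62), Atoh1 (4.40), C1qtnf3 (3.78), Tnnt1 (3.45), Robo3 (3.43), Pthlh (3.43), Cfap45 (3.35), Cfap206 (3.18), Fzd10 (3.17) and Dnajb13 (3.11), all in log2(TPM + 0.5). The 10 largest downward were Nkx2-2 (-4.57), Trmt112-ps2 (-4.29), Scn4b (-3.93), Klk6 (-3.79), Kcng4 (-3.68), Slc6a5 (-3.48), Vwa7 (-3.47), Spp1 (-3.43), Dao (-3.32) and Nefh (-3.13). Trmt112-ps2 is a pseudogene whose reads may come from another copy, and Klk6 was listed at 0 in every H and THy/PHy library. Tnnt1, a muscle troponin, had 117.5 TPM in H replicate 1 and 9.26 and 7.89 TPM in the other H libraries.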

How the results depend on the processing

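The counts of called genes kept within 1.5 times of 3075 higher and 4045 lower under every alternative. They were 3177 and 4272 with a pseudocount of 0.1, 2874 and 3691 with 1, 3322 and 4029 without a filter, 3408 and 3813 after rescaling without mitochondrial genes, 3671 and 3506 after median centring, 3625 and 3685 in edgeR, and 4066 and 3817 in DESeq2. With the replicate number as a block they were 3072 and 4052, and the contrast with hypothalamus gave 756 and 574 under the replicate block. The numbers were not taken as pairs, since the labels do not tie a number to a batch or an animal. Deviations of same-numbered libraries had correlations of -0.041 to 0.099 among H, NTS, DVC and PB. Between H and THy/PHy the same-numbered libraries had -0.195, 0.167 and -0.203, and libraries of different number had -0.233 to 0.33. Whether H and THy/PHy libraries share a batch under another numbering was not tested. Leaving out each library in turn gave 2869 to 3440 higher and 3288 to 4750 lower. The contrast with hypothalamus gave 728 to 1004 higher and 447 to 1760 lower, with 447 without H replicate 1, 1760 without H replicate 3 and 509 without THy/PHy replicate 1, and the pairs past the threshold numbered 7 to 9. Without H replicate 1 the counts were 3635 and 3077 against NTS, 3318 and 3289 against DVC, and 3116 and 3420 against PB. Chosen after seeing the data were a fit with a spread for each group (2319 and 3460) and edgeR without H replicate 1 (3426 and 3576).

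The genes that changed sign were not called with all libraries. Leaving out each library in turn gave -0.283 to 1.489 for Acta1, -0.189 to 0.647 for mt-Cytb and -0.324 to 0.239 for Dusp1, each with its change of sign without H replicate 1. It gave -0.241 to 2.23 for Six3 and -0.515 to 0.564 for the H1f0 pair, with the change without H replicate 2, and -0.161 to 0.191 for Slc1a3 and -0.266 to 0.728 for Foxj1, with the change without H replicate 3. Shank1 was -0.0989 in edgeR and -0.084 in DESeq2. Dusp1 was 0.0113 after rescaling, 0.0846 after centring, 0.141 in edgeR, 0.154 in DESeq2 and 0.264 in edgeR without H replicate 1, where Slc6a4 was 0.177, Acan -0.293, Acta1 -0.402 and mt-Cytb -0.0947. The cause of these changes was not tested.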
